A study of Zea mays with 8 samples.

Results

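The most abundant nuclear RNAs of wild-type (WT) maize anthers at the mitotic stage were 173 genes of the 39604 in the deposited table. They were chosen by 2 measured values, a WT mitotic level of at least 1000 FPKM (fragment counts divided by transcript length and by library size) and a mitotic minus post-meiotic difference in WT below 2 on the log2(FPKM + 1) scale. Of the 197 genes at 1000 FPKM or more in WT mitotic anthers, 24 were left out: 22 for the stage limit, 1 mitochondrial locus and the chalcone isomerase gene chi1. No microRNA locus reached 1000 FPKM. The 173 genes are therefore most, but not all, of the highest RNAs of that group, and their high WT level is a description and not a finding.

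Anthers are the pollen-bearing organs of the tassel. After meiosis each haploid microspore grows and divides by mitosis into a vegetative and a generative cell, and the maturing grain stores RNA for germination and tube growth. The stored RNAs of grass pollen are known to include those of actin-binding proteins, of enzymes that act on pectin and of beta-expansins, proteins that loosen cell walls and are the group-1 grass pollen allergens.

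The study compared WT plants with plants homozygous for the hda108 mutation in HDA108, a gene of a histone deacetylase, an enzyme that removes acetyl groups from histones. Both genotypes grew in the field, and their anthers were taken at a post-meiotic and at a mitotic stage, with 2 libraries of pooled anthers in each of the 4 groups. The mutant plants were homozygous, so anther wall and pollen carry the mutation alike. The deposited table has a single column for each group, with its 2 libraries combined. An error or a p-value can therefore be given for no value, and differences are descriptions of the 4 columns. A gene was called lower or higher when log2(FPKM + 1) differed by at least 2, which is a 4-fold difference at these levels, and the ratios given are ratios of FPKM. Sequencing depth was unknown.

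HDA108 itself (GRMZM2G136067) stood at 12.3 FPKM in WT against 4.10 FPKM in hda108 after meiosis, and at 6.43 against 4.30 FPKM at the mitotic stage. The mitotic difference depends on the scaling of the columns, at -0.49 log2 as deposited, -0.51 with quantile normalization and 0.66 after rescaling each column to a sum of 1000000, and the post-meiotic one was below 0 in all 3. All 173 members passed the filter of 1 FPKM in at least 1 group that left 24360 genes for comparison. Because the members were chosen by a high WT value, a lower value elsewhere is partly fixed by the choice at the mitotic stage. The WT post-meiotic column entered the rule through the stage limit alone, and the hda108 columns did not enter it. The stage limit and the mitotic minimum together keep the WT post-meiotic values of members high. The lowest was 280 FPKM, against a median of 9.10 FPKM over all genes tested. Lower values after meiosis are therefore partly fixed by the choice too. In whole anthers, fewer pollen cells and less RNA per cell cannot be told apart.

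At the mitotic stage the members held 39.3% of the summed FPKM of WT and 17.3% of that of hda108. In post-meiotic anthers they held 28.6% in WT and 12.6% in hda108. Their own sum was 504545 FPKM in WT and 87328 FPKM in hda108 mitotic anthers, a 5.78-fold difference, while the sum of all other genes differed 1.86-fold, from 779641 to 418099 FPKM. After meiosis the members' sum differed 3.47-fold, from 306183 to 88343 FPKM, and that of the other genes 1.25-fold, from 763617 to 612790 FPKM. In the deposited scaling the members made up 53.6% of the difference in total FPKM between the genotypes at the mitotic stage and 59.1% of it after meiosis. With all columns rescaled to equal sums there is no such difference in total, the members' sum was 2.27-fold lower in hda108 at both stages, and the sum of the other genes was 1.36-fold higher at the mitotic stage and 1.22-fold higher after meiosis. The 10 highest members alone held 7.39% of the WT mitotic sum and 2.37% of the hda108 mitotic sum.

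**Figure D1:**
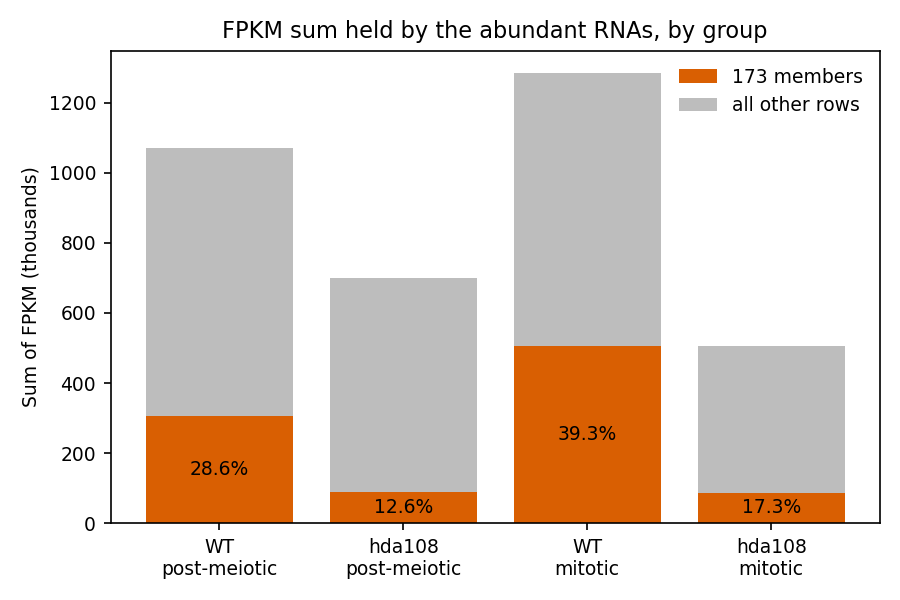
Summed FPKM (in units of 1000) in the 4 groups, divided into the 173 members (orange, with their percentage of the sum) and all other genes (grey). Mitotic anthers have 39.3% in WT and 17.3% in hda108, against 28.6% and 12.6% after meiosis.

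At the mitotic stage 137 of the 173 members (79.2%) were lower in hda108 and 0 were higher, with 36 between the limits, where 8.12% of all genes tested were lower and 1.52% higher. Genes near 0 FPKM in WT cannot fall by 2 on this scale, so the share of all genes tested called lower is partly kept down by the rule. The median of all genes tested was 6.78 FPKM in WT mitotic anthers. With a pseudocount of 0.1 in place of 1, 11.6% of them were lower at this stage and 6.54% after meiosis. The members ranged from 1007 to 13715 FPKM in WT with a median of 2062 FPKM, and from 14.5 to 4395 FPKM in hda108 with a median of 383 FPKM. The median difference was -2.61 log2, with quartiles of -3.29 and -2.13, against -0.02 over all genes tested. In ratios, the WT value was a median of 6.09 times the hda108 value, and for 124 members between 4 and 16 times. In all, 171 members were below WT in hda108 and 2 were above, GRMZM2G107839 and GRMZM2G066111.

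These counts depend on how the columns are scaled to each other, because the FPKM sums differ 2.54-fold between the genotypes at this stage. When each column was rescaled to a sum of 1000000, the median difference of all genes tested moved from -0.02 to 1.05 and that of the members to -1.26, with 40 members lower and 1 higher, where 2.47% of all genes tested were lower and 13.7% higher. With quantile normalization, which gives all columns the same set of values, 19 members (11.0%) were lower and 3 higher, where 5.46% of all genes tested were lower and 2.26% higher, and the median was -0.50 against 0.15 over all genes tested. Of the members, 164 were still below WT after rescaling and 128 after quantile normalization. The members' percentages of each column's sum do not change when a column is multiplied by a constant, unlike the FPKM sums and their ratios.

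**Figure D2:**
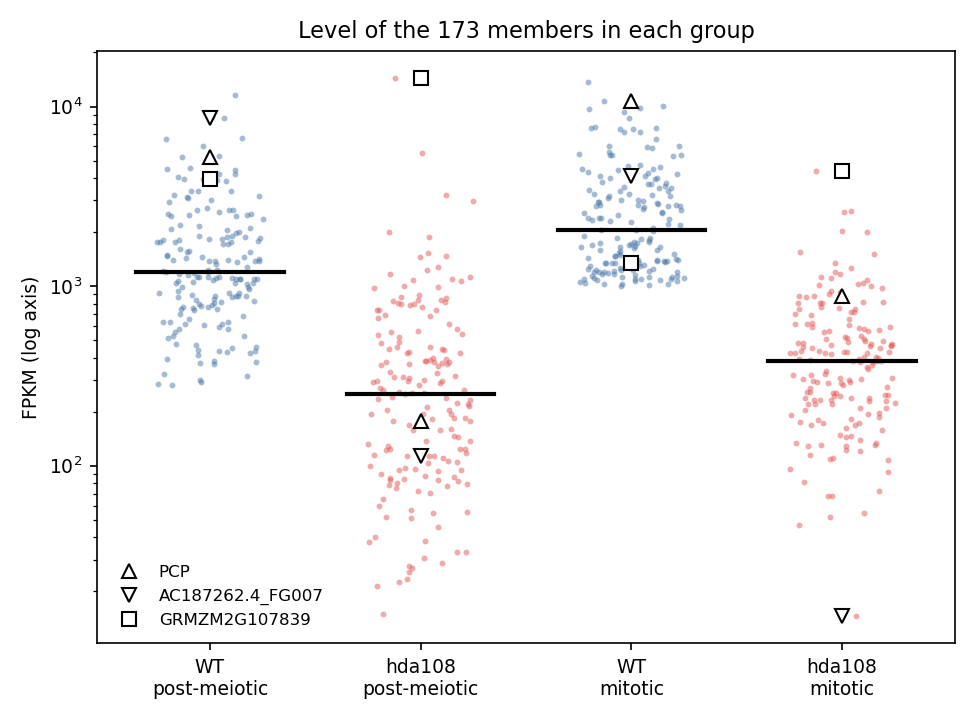
FPKM (log axis) of each of the 173 members (dots) in the 4 groups, with the median of each group as a bar. The median is 1198 FPKM in WT against 251 FPKM in hda108 after meiosis, and 2062 against 383 FPKM at the mitotic stage, and the open symbols mark PCP, AC187262.4_FG007 and GRMZM2G107839.

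After meiosis 128 members (74.0%) were lower in hda108 and 0 were higher, where 4.47% of all genes tested were lower and 1.68% higher. The members' median was 1198 FPKM in WT against 251 FPKM in hda108, and the median difference was -2.49 log2, with quartiles of -2.99 and -1.98, against -0.03 over all genes tested. After rescaling, 72 members were lower and 1 higher, where 2.72% of all genes tested were lower and 3.38% higher, and the median was -1.89 against 0.50. Quantile normalization left 68 lower and 0 higher, where 3.60% were lower and 1.95% higher, with a median of -1.66 against 0.10.

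As deposited, the 2 stages, which share no library, called 114 members lower in common. A further 23 were lower at the mitotic stage alone, 14 after meiosis alone and 22 at neither. Because the member rule keeps WT values high at both stages, this overlap is partly fixed by the choice. Of all genes tested, 8.12% were lower at the mitotic stage and 4.47% after meiosis. The share lower at both, and the overlap in other scalings, were not computed. Both differences were below 0 for 169 members. Across the 173 members, which are not independent replicates and share each stage's libraries and scaling, Pearson's r between the genotype differences of both stages was 0.76 and Spearman's rho 0.70.

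**Figure D3:**
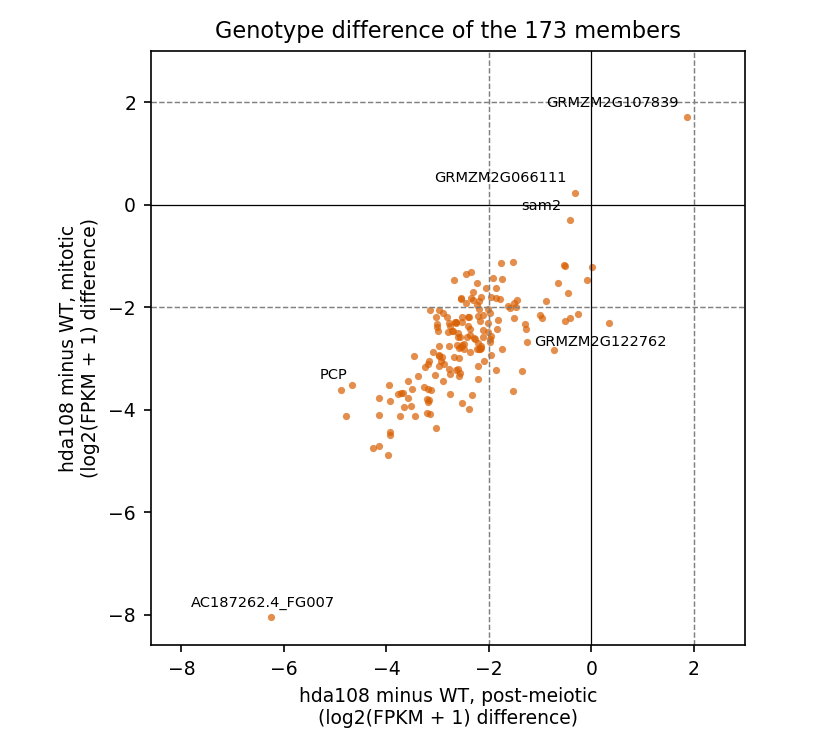
Genotype difference of each of the 173 members after meiosis (x axis) and at the mitotic stage (y axis), both as hda108 minus WT on the log2(FPKM + 1) scale, with dashed lines at -2 and 2. Most points lie in the lower left quadrant, with AC187262.4_FG007 at -6.24 and -8.04 and GRMZM2G107839 at 1.87 and 1.70.

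Ranks within a column, which do not depend on the scaling, differed more after meiosis than at the mitotic stage. Counted over all genes of the table, the members' median rank was 94 in WT and 131 in hda108 mitotic anthers, and 101 members were still among the 173 highest genes of hda108. After meiosis the median rank was 109 in WT and 381 in hda108, where 54 members were among the 173 highest genes, against 126 in WT. In hda108, 52 members ranked below place 1000 after meiosis and 7 at the mitotic stage. At the mitotic stage 44 members held a better rank in hda108 than in WT and 128 a worse one, and after meiosis 17 and 156.

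**Figure D4:**
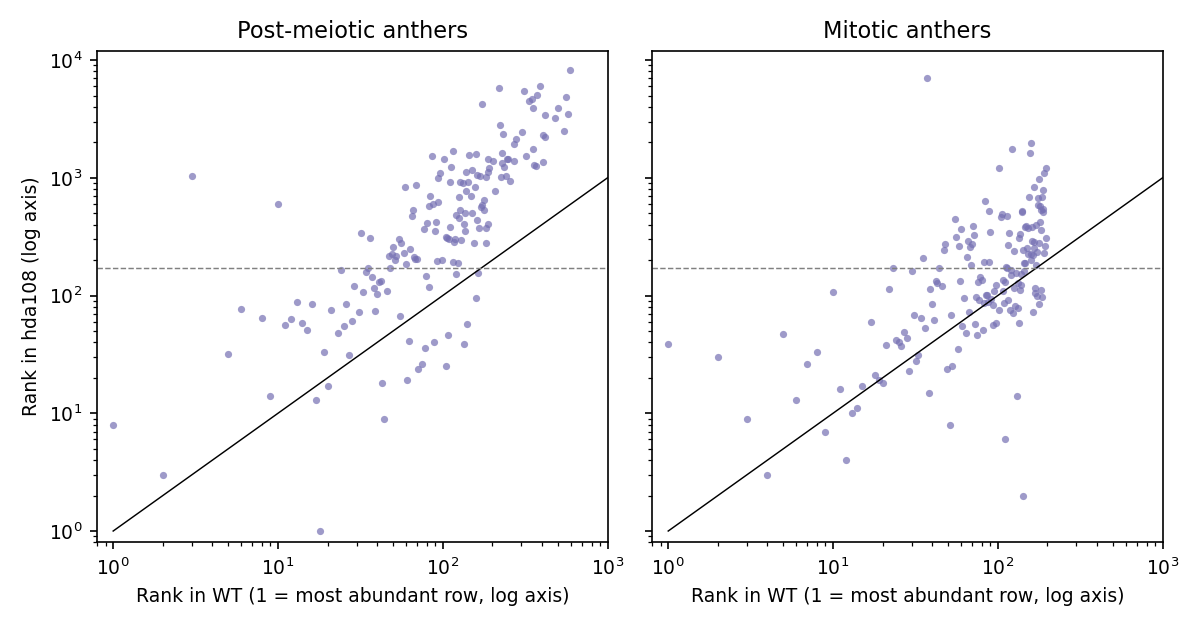
Rank of each of the 173 members in WT (x axis) and hda108 (y axis) among all genes of the table, on log axes, with 1 as the most abundant gene, for post-meiotic (left) and mitotic anthers (right). Points above the solid line rank worse in hda108, and the dashed line marks rank 173, which 54 members reach or pass after meiosis and 101 at the mitotic stage.

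Of the members, 122 were matched to a RefSeq gene, 5 of them to more than 1, and 23 had a gene symbol other than a locus number. Genes with symbols taken to stand for pollen or the male gametophyte were among the highest. PCP (GRMZM2G072448, chromosome 1, 75210847 to 75212440, B73 RefGen_v3), a symbol the name table gives without a description, reached 5236 FPKM in WT against 177 FPKM in hda108 after meiosis, and 10802.5 against 882 FPKM at the mitotic stage. The hda108 level was 29.6-fold lower after meiosis and 12.2-fold lower at the mitotic stage, and PCP went from rank 10 to 600 after meiosis and from rank 2 to 30 at the mitotic stage. Its difference was below 0 in every scaling tried, between -4.24 and -4.88 log2 after meiosis and between -1.76 and -3.61 at the mitotic stage.

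mgs1 (GRMZM2G317406, chromosome 10, 111861869 to 111862808), a male gametophyte-specific gene, had 5076 and 833 FPKM in WT and hda108 after meiosis and 8598 and 933 FPKM at the mitotic stage, a 6.10-fold and a 9.22-fold difference. mgs2 (GRMZM2G080056, chromosome 4, 231421873 to 231423870), another gene of that name, had 2497 and 579 FPKM after meiosis and 3400 and 569 FPKM at the mitotic stage. All 3 genes found of the pollen surface list, which was matched by symbol, were members. As deposited all 3 were lower in hda108 at both stages, where 8.12% (mitotic) and 4.47% (post-meiotic) of all genes tested were. After rescaling 1 of the 3, PCP, was lower by the 4-fold rule at each stage, and with quantile normalization PCP alone after meiosis and 0 at the mitotic stage.

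Among genes of cell wall proteins, all 4 listed beta-expansins were members. EXPB9 (GRMZM2G072886, chromosome 9, 117765964 to 117767293) reached 2665 FPKM in WT against 442 FPKM in hda108 after meiosis, and 3959 and 493 FPKM at the mitotic stage. EXPB10 (GRMZM2G127106, chromosome 5, 200274644 to 200279681) had 1421 and 178 FPKM, and then 2643 and 474 FPKM. For both genes each hda108 value lay below both WT values.

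EXPB11 (GRMZM2G089699, chromosome 9, 152409061 to 152410472) was the lowest of the 4 beta-expansins after meiosis, with 766 and 115 FPKM, and had 1343 and 243 FPKM at the mitotic stage. EXPB1 (GRMZM2G146551, chromosome 9, 118273114 to 118274521) stood apart by stage, with 2463 and 481 FPKM after meiosis but 1133 and 457 FPKM at the mitotic stage, so that its ratio of WT to hda108 went from 5.12 to 2.48. The mitotic difference of EXPB1 turned from -1.31 log2 to 0.04 after rescaling and to 0.67 with quantile normalization, while the other 3 kept their sign in both scalings at both stages. EXPB9 is also named EXPB1B in the name table, and how reads were divided between closely related expansin genes is not known here, so the values of single copies are uncertain.

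Polygalacturonases cut pectin, the gel-forming part of the cell wall. pgl1 (GRMZM2G418644, chromosome 10, 14695947 to 14698281) had 918 and 204 FPKM in WT and hda108 after meiosis and 1655 and 476 FPKM at the mitotic stage. PG2C (GRMZM2G160526, chromosome 6, 99103864 to 99105564) had 1093 and 220 FPKM, and then 1397 and 427 FPKM. Both were lower by the 4-fold rule after meiosis and short of it at the mitotic stage, at -1.80 and -1.71 log2, and with quantile normalization both mitotic differences turned positive, at 0.32 and 0.24. pgl1 carries several polygalacturonase names, and RefSeq places the gene of that name on chromosome 6 of its newer assembly, so near-identical copies may share reads and the value is uncertain. Over the 6 cell wall members, 3 were lower at the mitotic stage and 6 after meiosis, against 8.12% and 4.47% of all genes tested. After rescaling, and likewise with quantile normalization, 0 were lower at the mitotic stage and 2 after meiosis.

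The cytoskeleton was represented by 8 members, of which 6 were lower at the mitotic stage and 5 after meiosis, where 8.12% and 4.47% of all genes tested were. After rescaling 1 of the 8, LIM7, was lower after meiosis and 0 at the mitotic stage, and with quantile normalization 2 and 0. Profilins bind actin monomers. The profilin gene prf3 (GRMZM5G876285, chromosome 8, 174848341 to 174876645) had 3372 and 835 FPKM in WT and hda108 after meiosis and 5875 and 1044 FPKM at the mitotic stage, and its ID matches 2 RefSeq profilin genes. prf2 (GRMZM2G109842, chromosome 8, 124237914 to 124239012) had 748 and 241 FPKM, and then 1169 and 297 FPKM, just short of the 4-fold rule at -1.97 log2.

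The 3 other profilin genes of the list were not members and divided into a lower and a level part. prf1 (GRMZM2G074361) had 466 and 173 FPKM after meiosis and 775 and 257 FPKM at the mitotic stage, 2.70-fold and 3.02-fold lower in hda108. PRO4 (GRMZM2G108780) had 49.3 and 50.1 FPKM after meiosis and 41.6 and 47.2 FPKM at the mitotic stage. The first of 2 table entries for prf5 (GRMZM5G877388) had 91.0 and 99.8 FPKM, and then 98.0 and 91.2 FPKM, and the second (GRMZM2G028594) lay between 10.5 and 18.0 FPKM in the 4 groups. As deposited, the profilin genes with the higher WT values were thus those whose hda108 values lay further below WT. The differences of PRO4 and prf5 were within 0.61 log2 of 0 as deposited, while after rescaling all 6 of their differences were positive, between 0.62 and 1.88. For prf3 and prf1 the mitotic difference turned to 0.03 and 0.19 with quantile normalization, and that of prf2 to -0.09.

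Actin-depolymerizing factors cut and disassemble actin filaments. adf2 (GRMZM2G097122), just under the member threshold, had 476 and 62.7 FPKM in WT and hda108 after meiosis and 994 and 231 FPKM at the mitotic stage. adf1 (GRMZM2G117603) had 373 and 66.0 FPKM, and then 717 and 180 FPKM. GRMZM2G116204 shares only the symbol abp1 with adf1, as its other name Aux311 shows, and had 139 and 197 FPKM, and then 81.9 and 121 FPKM. Of the 9 genes matched by the actin-binding list, GRMZM2G116204 included, 3 were lower after meiosis and 2 at the mitotic stage, and 0 were higher. Of all genes tested, 4.47% were lower and 1.68% higher after meiosis, and 8.12% and 1.52% at the mitotic stage.

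**Figure D5:**
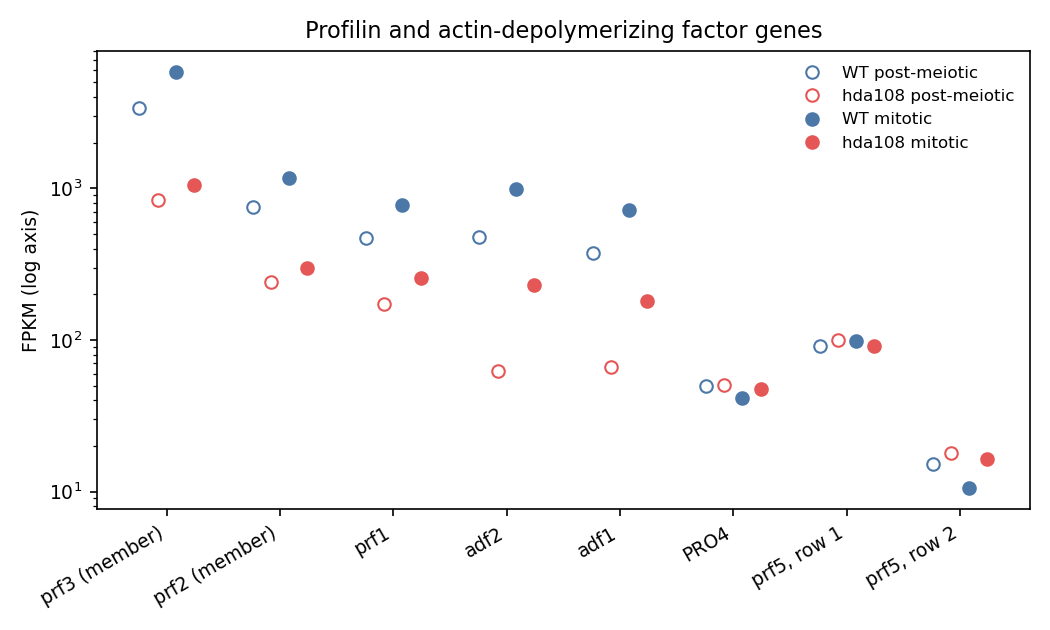
FPKM (log axis) of profilin and actin-depolymerizing factor genes in WT (blue) and hda108 (red), after meiosis (open) and at the mitotic stage (filled), with 1 value per gene and group. prf3, prf2, prf1, adf2 and adf1 have red points below the blue ones, as in 5875 and 1044 FPKM for prf3, and the 4 values of PRO4 lie between 41.6 and 50.1 FPKM.

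The other cytoskeletal members were LIM, actin, tubulin and annexin genes. LIM-domain proteins include actin-bundling proteins in tobacco and Arabidopsis. LIM7 (GRMZM2G134752) had 477 and 52.1 FPKM in WT and hda108 after meiosis and 1086 and 129 FPKM at the mitotic stage, 9.15-fold and 8.41-fold lower. LIM9 (GRMZM2G153268) was 5.62-fold and 7.06-fold lower and LIM4 (GRMZM2G024887) 6.13-fold and 6.01-fold lower, and none of the 3 LIM genes changed sign in any scaling. The locus of LIM9 overlaps that of another gene, so that their reads may not be separated.

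The actin gene Maz81 (GRMZM2G006765) had 1216 and 293 FPKM in WT and hda108 after meiosis and 1909 and 615 FPKM at the mitotic stage. The alpha-tubulin gene TUBA4 (GRMZM2G152466) had 872 and 446 FPKM, and then 1201 and 257 FPKM. The annexin gene anx2 (GRMZM2G061950), of a family of calcium-dependent membrane-binding proteins, had 1110 and 449 FPKM, and then 2037 and 404 FPKM. TUBA4 and anx2 had the wider gap at the mitotic stage and Maz81 after meiosis, and with quantile normalization Maz81 turned to 0.58 log2 at the mitotic stage and TUBA4 to 0.05 after meiosis.

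The last 6 named members belong to water transport, drying, redox state, metabolism or protein turnover or are known by symbol alone. As deposited 3 were lower at the mitotic stage and 1 after meiosis, where 8.12% and 4.47% of all genes tested were. At either stage 0 were lower after rescaling or quantile normalization. The tonoplast aquaporin gene TIP1-2 (GRMZM2G168439), of a water channel of the vacuole membrane, had 4574 and 798 FPKM in WT and hda108 after meiosis and 5338 and 802 FPKM at the mitotic stage. The dehydrin gene dhn2 (GRMZM2G373522), of a family that accumulates in drying tissue, had 1891 and 787 FPKM, and then 3025 and 471 FPKM. The gene with the symbol GH3 (GRMZM2G378106) had 3010 and 761 FPKM, and then 1224 and 281 FPKM.

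After meiosis the smallest differences among the 23 members with a symbol were those of trxh2, sam2 and MUB3. sam2 (GRMZM2G154397), of S-adenosylmethionine synthesis, had 1198 and 892 FPKM after meiosis and 1443 and 1169 FPKM at the mitotic stage, and its rank went from 131 in WT to 14 in hda108 mitotic anthers. The thioredoxin h gene trxh2 (GRMZM2G144653), of a protein that reduces disulfide bonds, had 1227 and 1228 FPKM after meiosis and 1403 and 604 FPKM at the mitotic stage. The ubiquitin gene MUB3 (GRMZM2G409726), whose product tags proteins for breakdown, had 1818 and 976 FPKM, and then 2554 and 696 FPKM. At the mitotic stage sam2, trxh2 and MUB3 were 1.23-fold, 2.32-fold and 3.67-fold lower in hda108, short of the 4-fold rule, with EXPB1, Maz81, PG2C and pgl1 between the last 2 of these ratios, and with quantile normalization all 3 were above WT at both stages, as sam2 and trxh2 were after rescaling.

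Of the listed pollen genes outside the members, pme1 and stk1 were lower in hda108 at both stages, beside adf2. The pectin methylesterase gene pme1 (GRMZM2G125356), which missed the member rule by a WT stage difference of 2.02 log2, had 736 and 96.1 FPKM in WT and hda108 after meiosis and 2994 and 264 FPKM at the mitotic stage. The pollen protein kinase gene stk1 (GRMZM2G165433) had 66.4 and 3.51 FPKM, and then 365 and 19.1 FPKM, 18.9-fold and 19.1-fold lower. The small GTPase genes rop2 (GRMZM5G846811) and rop9 (GRMZM5G803949), of signalling switches in cell growth, were 3.33-fold and 3.23-fold lower at the mitotic stage, short of the 4-fold rule. Of 5 kinase and GTPase genes 1 was lower at each stage and 0 were higher. Of all genes tested, 8.12% were lower and 1.52% higher at the mitotic stage, and 4.47% and 1.68% after meiosis.

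Lists of other cell types and of translation were read beside the members. The 5 tapetum and anther wall genes found summed to 138 and 85.2 FPKM in WT and hda108 after meiosis and to 88.0 and 55.9 FPKM at the mitotic stage, with 0 of them listed at 0. Of the 4 tested, ms23 alone was lower at the mitotic stage, where 8.12% of all genes tested were. The gene ms8 alone was higher after meiosis, where 1.68% were. The 7 green-tissue genes summed to 2380 and 2285 FPKM after meiosis and to 661 and 481 FPKM at the mitotic stage, with 0 lower and 0 higher at either stage, and most of the post-meiotic sum came from cab-m7, with 1795 and 1450 FPKM. The 35 translation genes found, which stand for RNAs that most cells hold, summed to 4001 and 3661 FPKM, and then 2492 and 2237 FPKM. Of the 33 tested, 0 were lower and 0 higher, with medians of -0.12 log2 (post-meiotic) and -0.14 (mitotic) as deposited and 0.47 and 1.19 after rescaling. None of these 3 lists held a member, and their part in the members' differences was not tested.

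Most of the highest members had no gene name. GRMZM2G364349 (chromosome 6, 72167998 to 72169783), the highest RNA of WT mitotic anthers, had 13715 FPKM there and 802 FPKM in hda108, 17.1-fold lower, after 6563 and 734 FPKM in post-meiotic anthers. GRMZM2G130055 had 10033 and 1502 FPKM at the mitotic stage, GRMZM2G025833 had 9700 and 745 FPKM, and GRMZM2G133129 had 9374 and 1193 FPKM. GRMZM2G700791 had 9858 and 2613 FPKM, 3.77-fold lower, and was the third highest gene of hda108 mitotic anthers. Beside PCP and mgs1, the remaining members of the 10 highest, GRMZM2G073155, GRMZM2G007708 and GRMZM2G431856, lay between 7560.5 and 7737 FPKM in WT and between 434 and 1996 FPKM in hda108 mitotic anthers.

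AC187262.4_FG007 (chromosome 1, 184732929 to 184733551) had the largest negative difference of the members at both stages. It was the third highest gene of WT post-meiotic anthers, with 8612 FPKM, against 113 FPKM in hda108, and had 4093 and 14.5 FPKM at the mitotic stage. These values are 76.4-fold and 282-fold lower, and the mitotic rank went from 37 to 7074. The next largest mitotic ratios were 30.3 for AC205012.3_FG002, 27.2 for AC203535.4_FG006, 26.7 for GRMZM2G332660, 22.9 for GRMZM2G029558 and 21.9 for AC233959.1_FG006. The locus of AC205012.3_FG002 overlaps that of another gene.

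GRMZM2G107839 (chromosome 3, 231911305 to 231912822) was above WT in hda108 at both stages, the only member of the 173 that was as deposited. Its level after meiosis was 3958 FPKM in WT against 14478 FPKM in hda108, the highest value of that group, and 1348 and 4395 FPKM at the mitotic stage. The hda108 values were 3.66-fold and 3.26-fold higher, which is 1.87 and 1.70 log2 and short of the 4-fold rule, and 3.05 log2 at the mitotic stage and 2.48 after meiosis once the columns were rescaled. GRMZM2G066111 (chromosome 9, 58990476 to 58992884) had 1819 and 1458 FPKM, and then 1726 and 2026 FPKM, so that its 4 values lay between 1458 and 2026 FPKM. Next to these and sam2, the smallest mitotic differences were those of GRMZM2G161154, GRMZM2G053749 and GRMZM2G436593, at -1.12, -1.15 and -1.17 log2.

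Between the stages within hda108, the members' median was 0.83 log2 higher at the mitotic stage, against -0.27 over all genes tested. The member rule used no hda108 column, but its WT mitotic minimum favours genes that are high at the mitotic stage. Over the members, Pearson's r between the stage differences of WT and hda108 was 0.80. The comparison within hda108 is therefore not free of the choice of members. By the 4-fold rule 6 members were higher and 8 lower at the mitotic stage, where 1.02% of all genes tested were higher and 2.94% lower. Rescaling gave 32 higher and 4 lower, where 1.91% of all genes tested were called in each direction. Quantile normalization gave 52 higher and 8 lower, where 1.86% and 2.21% were. In WT, where the rule sets the upper limit and the mitotic minimum, the members' median was 0.90 log2 and 156 of 173 were above their post-meiotic value. PCP had the same direction in both genotypes, at 1.04 log2 in WT and 2.31 in hda108.

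Members below and members above their post-meiotic WT value are set side by side as a description, 17 of the former and 156 of the latter. The median of the 17 was 3010 FPKM in WT and 1117 FPKM in hda108 after meiosis, and 1400 and 391 FPKM at the mitotic stage. As deposited, 2 of the 17 and 126 of the 156 were lower in hda108 after meiosis, where 4.47% of all genes tested were. At the mitotic stage 10 and 127 were lower, where 8.12% of all genes tested were. These counts were not made in other scalings. GRMZM6G655332, the highest RNA of WT post-meiotic anthers, is 1 of the 17, with 11624 and 3200 FPKM after meiosis and 3975 and 423 FPKM at the mitotic stage. GRMZM2G122762, also among them, had 2371 and 2991 FPKM, and then 1112 and 224 FPKM.

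Genes chosen by other columns are set beside the members. Each such choice has a bias of its own, so these genes do not show how far the lower values follow from the choice of members. When the same minimum was set on the WT post-meiotic column, 134 genes were chosen, of which 108 were also members, and 65.7% of the 134 were lower in hda108 at the mitotic stage. The 26 of them that are not members, all under 1000 FPKM in WT mitotic anthers, included 8 lower genes at the mitotic stage and 4 after meiosis. Choice by a high hda108 value, used next, favours genes that are higher in hda108. Of 36 nuclear genes at 1000 FPKM or more in hda108 post-meiotic anthers, 16 were members, 4 were higher in hda108 and 1 was lower, with a median of -0.11 log2. Of 21 such genes in hda108 mitotic anthers, 17 were members, 2 were higher and 9 lower, with a median of -1.92 log2. Of all genes tested, 8.12% were lower and 1.52% higher at the mitotic stage, and 4.47% and 1.68% after meiosis.

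Over the whole table, the share of genes lower in hda108 was read by WT level. Genes low in WT can hardly fall by 2 on the log2(FPKM + 1) scale, so the small shares at low levels are partly set by the size rule. At the mitotic stage, where the WT value also enters the difference, the share was 1.89% of genes at 1 to 10 FPKM in WT, 11.5% at 10 to 100 FPKM, 35.5% at 100 to 300 FPKM and 62.3% at 300 to 1000 FPKM. With the genes placed by their WT post-meiotic level instead, the mitotic shares were 2.95%, 10.5%, 29.5% and 41.2%, then 62.5% at 1000 to 3000 FPKM and 76.7% above. The post-meiotic shares by that level, which again enters the difference, were 1.22%, 5.53%, 17.3%, 33.8% and 57.7%, then 53.3% above 3000 FPKM. The last 2 of these are 60 of 104 and 16 of 30 genes. With the genes placed by WT mitotic level, the post-meiotic shares were 72.4% at 1000 to 3000 FPKM and 86.9% above.

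At that threshold, the 3 members just inside were GRMZM5G840145, GRMZM2G323387 and GRMZM2G054123, at 1007, 1008 and 1021 FPKM in WT mitotic anthers and 67.6, 209 and 233 FPKM in hda108. The 3 genes just outside were AC205471.4_FG007, adf2 and GRMZM2G011784, at 994.2, 994.1 and 984 FPKM in WT and 242, 231 and 414 FPKM in hda108. At the stage limit, AC203535.4_FG006, GRMZM2G136170 and GRMZM2G030531 lay just inside, at 1.98, 1.98 and 1.95 log2. GRMZM2G163099, GRMZM2G436856 and GRMZM2G353497 lay just outside, at 2.01, 2.01 and 2.02. As deposited, all 22 genes left out for the stage limit were lower in hda108 at both stages. Of all genes tested, 8.12% (mitotic) and 4.47% (post-meiotic) were. The WT mitotic minimum of these 22 genes favours a lower mitotic value in hda108, so their mitotic count is partly fixed by the choice.

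The members were short loci. Their median locus span was 1259 bases, against 3408 bases for all genes tested, and 39.3% spanned under 1000 bases against 10.7%. FPKM is divided by transcript length, so short transcripts reach high values with fewer fragments. The 68 members under 1000 bases and the 105 longer ones had median mitotic differences of -2.50 and -2.73 log2, with 52 and 85 lower. Over the other nuclear genes tested, the medians were -0.40 for the short and 0.02 for the long loci. The loci of 11 members overlap another gene's, and without them 127 of 162 were lower at the mitotic stage.

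Every chromosome held members, from 6 on chromosome 10 to 25 on chromosome 5, and 2 lay on unplaced scaffolds. Some were close neighbours: 23 members formed 9 runs with gaps of at most 100000 bases, 7 of them pairs. The longest run had 5 members within 216693 bases of chromosome 4, GRMZM2G060937, GRMZM2G053749, GRMZM2G121631, GRMZM2G139431 and GRMZM2G139517. Their WT mitotic levels lay between 1471 and 4000 FPKM, while the 3 other genes between them did not pass 24.8 FPKM.

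In hda108 mitotic anthers the 5 genes of that run had 941, 1550, 509, 820 and 1123 FPKM, and none reached the 4-fold rule, with differences from -1.15 to -1.97 log2. After meiosis 4 of the 5 did as deposited, with differences from -1.76 to -2.55, but none did after rescaling, with differences from -1.16 to -1.94. The second run had 4 members within 68003 bases of chromosome 7, GRMZM2G133113, GRMZM2G133129, GRMZM2G381357 and GRMZM2G018366. Its members had 7536, 9374, 3709 and 1219 FPKM in WT mitotic anthers and 1117, 1193, 393 and 173 FPKM in hda108. As deposited all 4 were lower at both stages, where 8.12% (mitotic) and 4.47% (post-meiotic) of all genes tested were. After rescaling their mitotic differences, from -1.41 to -1.89 log2, were short of the 4-fold rule. With quantile normalization they were from -0.28 to -1.17. Whether the members of a run are copies of one another, which could share reads, was not tested, since no sequences were used here.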

How the data were processed

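RNA of 8 libraries, 2 per group, was depleted of ribosomal RNA, made into stranded libraries and sequenced on an Illumina instrument, per the labels' protocols. Tools listed in the submitters' processing notes, without their roles, are Cuffdiff 2.2.1, Cufflinks, TopHat2 2.0.13, SAMtools, Trimmomatic 0.33 and CASAVA 1.8, and the genome build listed is B73 RefGen_v3. The values the authors deposited are FPKM, and per the file headers each group has a single column. How replicates were combined and groups scaled to each other was not given in the labels. The column named for the homozygous genotype was taken as hda108.

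Because replicates are not separated, limma, planned for a table that separates them, was not run and a size rule was used: log2(FPKM + 1) differing by at least 2. The members and lists were chosen with earlier results of these data known. Named genes were PCP, the 10 highest members, the 6 largest and 6 smallest mitotic differences, members with an informative name, list genes and those next to the thresholds. Other genes were named after their values were seen. Names came from RefSeq (assembly Zm-B73-REFERENCE-NAM-5.0), and the grouping by role was made from those names after the values were seen. The planned protein families and promoter motifs were not analysed here. Coordinates are as deposited. Shares, ranks, medians and counts were computed with Python 3.11.15, numpy 2.4.6, pandas 2.3.3 and matplotlib 3.10.9, and the size rule was tested on simulated data. Depth was unknown, so no counting interval is given. Alternatives changed scaling, pseudocount, filter, size rule and member rule.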

Additional observations from a re-analysis of the deposited data

Results flagged for a closer look

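In 3 members the genotype difference had opposite signs at the 2 stages, of which trxh2 was within 0.1 log2 of 0 after meiosis and is not taken further. For the other two, the change of sign was not tested, since each group has 1 value. GRMZM2G122762 was at 0.33 log2 in hda108 minus WT after meiosis and at -2.31 at the mitotic stage, and the signs were the same after rescaling, at 0.94 and -0.96, and with quantile normalization, at 1.17 and -0.58. GRMZM2G066111 was at -0.32 log2 after meiosis and at 0.23 at the mitotic stage, but at 0.29 and 1.58 after rescaling, where the signs no longer differ.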

How the results depend on the processing

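No paired analysis was possible because the columns carry no replicate numbers, and for the same reason no replicate could be left out. Rescaling to a sum of 1000000, quantile normalization and, added after seeing the data, scaling on the genes that are not members gave 40, 19 and 64 members lower at the mitotic stage in place of 137, with medians of -1.26, -0.50 and -1.71. After meiosis they gave 72, 68 and 101 in place of 128, with medians of -1.89, -1.66 and -2.18. Of all genes tested, these settings called 2.47%, 5.46% and 3.80% lower at the mitotic stage and 2.72%, 3.60% and 3.34% after meiosis. Between the stages in hda108 they gave 4, 8 and 4 members lower in place of 8, and 32, 52 and 36 higher in place of 6. There 1.91%, 2.21% and 1.46% of all genes tested were lower, and 1.91%, 1.86% and 1.88% higher. A minimum of 500 FPKM took 328 genes, 227 lower at the mitotic stage and 202 after meiosis, with medians of -2.54 and -2.28. A minimum of 2000 FPKM took 89 genes, 78 and 75 lower, with medians of -2.75 and -2.56. Choice by the WT post-meiotic column took 134 genes, 88 and 76 lower, with medians of -2.39 and -2.19. Without the stage limit the medians were -2.75 and -2.59, and without members at overlapping loci, an alternative added later, -2.57 and -2.47. A pseudocount of 0.1 gave a post-meiotic median of -2.50 and left both counts as they were, where 11.6% and 6.54% of all genes tested were lower. A size rule of 1 gave 170 and 157 lower, where 20.8% and 12.9% of all genes tested were lower and 10.4% and 7.43% higher. The members' shares in WT and hda108 post-meiotic and WT and hda108 mitotic anthers were 29.2%, 12.9%, 39.7% and 17.9% without organelle and microRNA loci in the sum. They were 36.9%, 19.4%, 47.8% and 23.1% at a minimum of 500 FPKM, and 20.9%, 6.49%, 30.4% and 11.4% at 2000 FPKM. By the WT post-meiotic column they were 29.0%, 16.6%, 33.0% and 15.5%. With no filter on low values 5.0% and 2.75% of all genes were lower at the mitotic and post-meiotic stages. The members' median genotype differences stayed below 0 in these settings. The mitotic median of the actin-binding list, which counts GRMZM2G116204 too, turned from -1.59 to 0.19 with quantile normalization.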
